A study of Xenopus laevis with 9 samples.

Results

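Muscle and mesoderm genes were described across cranial neural crest explants of Xenopus laevis, a frog whose genome carries paired gene copies written .L and .S. The members were all probe sets whose annotated symbol begins with tnnc, tnni, tnnt, actc, acta, myl, myh, tpm, mef2, meox or tbx6, together with those of myod1, myf5, myf6, des, ckm, ttn, tbxt, msgn1 and mespa. The rule took 81 of the 15491 probe sets. Of these, 78 carried 1 symbol, covering 55 of the 7531 different symbols in the table, and 3 listed both copies of 1 gene. Because the rule works on letters, it also took non-muscle myosins and 2 unrelated genes, mylip.S (a ubiquitin ligase) and tpmt.L (a methyltransferase). No probe set in the table carried an actc, des or ttn symbol, or that of tnnt3.L or tbxt.L. Of the 15491 probe sets, 5992 carried no symbol and could not be members. Whether any of them reads these genes was not tested. Shares of the table given below include them.

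The study compared 3 groups of 3 Affymetrix arrays, and every embryo received 10 ng of morpholino as a fertilised egg. The CMO group received a control morpholino, the MO13 group a morpholino against the metalloprotease ADAM13, and the MO13+C13 group the latter with mRNA of GFP joined to the cytoplasmic part of ADAM13. The mRNA dose was 300 pg in the sample labels and 0.5 ng in the series text. Embryos grew at 15 °C, and crest was dissected at stages 15 to 17 and extracted at once. Arrays with the same replicate number came from 1 of 3 independent experiments. The question was which transcripts depend on ADAM13 and whether its cytoplasmic part brings them back.

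In the frog embryo, skeletal muscle arises in the somites from paraxial mesoderm. T-box and bHLH factors such as tbx6, msgn1 and mespa act in the presomitic mesoderm, and myod1, myf5 and myf6 then switch on the contractile genes. In the sarcomere, myosin heavy and light chains pull on actin filaments, and troponin and tropomyosin make this depend on calcium. Cranial neural crest is ectodermal and lies next to head mesoderm. The regulators and contractile genes described here are those of somites and muscle. Whether they would reveal head mesoderm in a crest explant was not tested. Non-muscle myosin and cytoplasmic tropomyosins serve shape and migration in most cells.

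Over all probe sets, array medians ran from 4.88 to 5.07 on the deposited log2 scale and lower quartiles from 1.78 to 1.89. Arrays of 1 group correlated at 0.979 to 0.991. Most crest markers were high, as the label of the tissue states: of 30 cranial neural crest probe sets, 24 lay above the array median on all 9 arrays. Among them the transcription factors snai2.L, sox9.S, foxd3.L and tfap2a.L averaged 9.64, 10.41, 8.68 and 10.63. Another 5 lay under the median on all 9 arrays, including snai2.S (mean 1.92), alx1.L (1.69) and a probe set of ets1.L (1.64). The probe set for adam33.L, the present name of the ADAM13 gene, had means of 3.64 for CMO, 4.34 for MO13 and 10.07 for MO13+C13 (SD of 0.76, 0.52 and 0.14, n = 3 each). Its difference of 0.70 between MO13 and CMO was not called (limma adjusted p = 0.832), and its mRNA is no check on a morpholino that acts on translation.

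Muscle and mesoderm transcripts gave low signals in these explants. Of the 81 probe sets, 63 lay under the array median on all 9 arrays, and 28 of them also lay under the lower quartile on all 9. Over the whole table these counts were 7035 and 2883 of 15491. Detection calls were not used, so a low signal is not a statement that the transcript was missing. In such pieces of tissue, fewer cells of a type and less RNA per cell cannot be told apart.

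The regulators of muscle and mesoderm were low throughout. All 15 of their probe sets lay under the median on all 9 arrays, 11 of them under the lower quartile on all 9, and no value exceeded 2.64. The probe set of myod1.L, the factor that commits cells to muscle, ran from 0.87 to 1.17 over the 9 arrays. That of myf5.L, its partner in early myogenesis, ran from 1.07 to 1.30. The mesodermal T-box genes tbxt.S (Brachyury) and tbx6.L ran from 1.25 to 1.88 and from 1.32 to 1.62. The presomitic factors msgn1.L, mespa.L and mespa.S did not exceed 1.29, 1.15 and 1.15. The probe set of myod1.S ran from 1.91 to 2.55, above the lower quartile and under the median on every array.

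The contractile genes of muscle were nearly as low. All 12 troponin probe sets and both muscle actin probe sets (acta1.S and acta2.L) lay under the median on all 9 arrays. So did 11 of 13 for muscle myosin heavy chains and 16 of 17 for muscle light chains. For the regulators, muscle-type contractile genes and creatine kinase together, 58 of 62 probe sets were under the median throughout. The exceptions were 1 probe set each of myh15.L, myh6.S, myl1.L and ckm.L. The 3 probe sets of ckm.L, the creatine kinase that buffers ATP in muscle, disagreed: 2 averaged 1.92 and 2.20, and the third averaged 8.56 with no array under 8.06. Which of them reads the muscle enzyme was not tested.

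The members with high signals were mostly of non-muscle type. Over the array median on all 9 arrays were 12 members. These included 6 of the 7 probe sets for non-muscle and smooth muscle light chains, namely 3 of myl12b.L, 2 of myl9 and 1 of myl6.S. The non-muscle heavy chains myh9.L and myh10.S averaged 8.69 and 9.36. Among tropomyosins, tpm3.S and the probe set shared by tpm4.S and tpm4.L averaged 8.83 and 9.12, while tpm2.L and tpm2.S, the copies of a muscle form, stayed under the lower quartile on all 9 arrays.

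**Figure D1:**
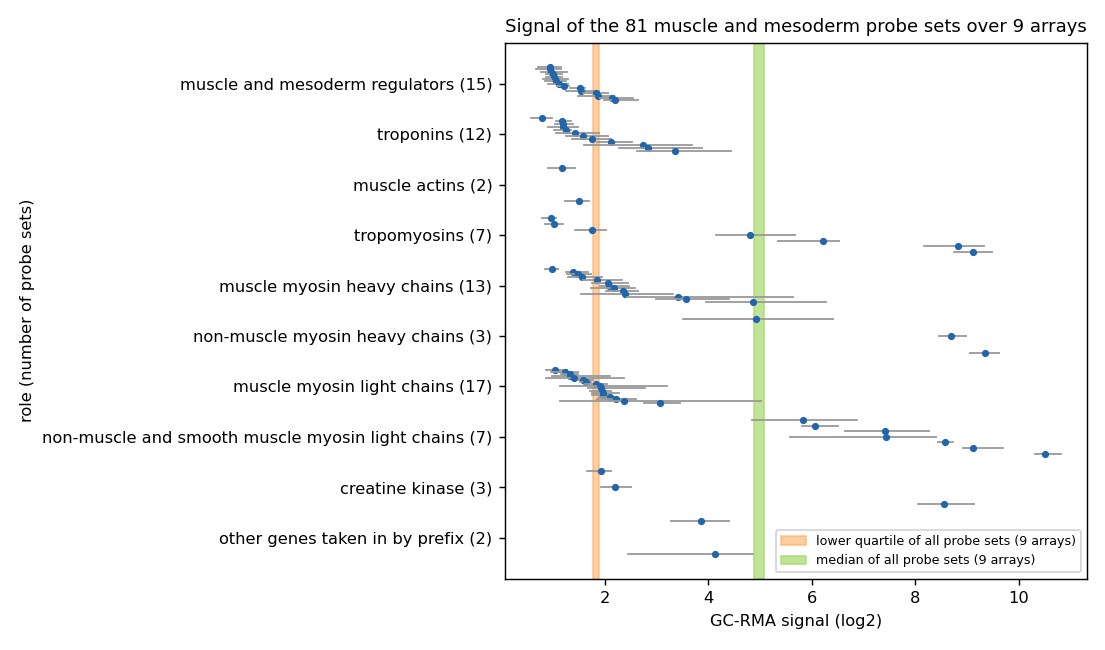
Mean signal (points) and lowest to highest value over 9 arrays (grey lines) of each of the 81 member probe sets on the log2 scale, grouped by role, with bands for the range over arrays of the lower quartile and the median of all probe sets. All 15 regulator and all 12 troponin probe sets lie left of the median band, and 6 of 7 non-muscle and smooth muscle light chain probe sets lie right of it.

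Lists of muscle, mesoderm and other tissues outside the members differed in level. Of 35 probe sets for other sarcomere and muscle metabolism genes, 19 lay under the lower quartile on all 9 arrays and 2 over the median on all 9. For heart genes 12 of 13 were under the quartile throughout, for notochord 9 of 15, for blood and vessel 12 of 22 and for early mesoderm 17 of 43. Over the median on all 9 arrays were 1 heart, 1 notochord, 2 blood and vessel and 8 early mesoderm probe sets. The 8 were mostly of pax2.L, the rest of fgf8.L, wnt8a.L and wnt11b.L, while eomes.L averaged 1.52, vegt.L 1.53 and mix1.L 1.51. Whether their signal came from mesoderm was not tested. Of 14 probe sets for other myogenic and somite regulators, 4 were under the quartile and 5 over the median on all 9. The 5 were those of pax3, which acts in both somites and neural crest, while myog, which acts after myod1, averaged 0.94 (myog.L) and 0.92 (myog.S). Of neural plate probe sets 23 of 39 lay over the median throughout, and of epidermal ones 4 of 12, with 3 under it on all 9.

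Between MO13 and CMO, the muscle and mesoderm members lay on both sides of 0, and the fast troponin T gene tnnt3.S was the one called, with the block alone. The median difference over the 81 probe sets was -0.03 (log2), beside -0.0067 over the whole table, with 35 higher and 46 lower. None passed limma's test with adjustment over all probe sets, where 0.0968% of the table was called. At an unadjusted p under 0.05 there were 5 members, or 6.17%, beside 6.87% of the table. The blocked fit gave 10 members, or 12.3%, beside 16.4% of the table. With experiment as a block, 1.16% of the table was called, and 1 member, or 1.23%, namely tnnt3.S, was called lower.

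The troponin T of fast skeletal muscle anchors the troponin complex to tropomyosin, and tnnt3.S encodes it. Its single probe set read 3.50, 3.24 and 3.88 in the CMO arrays of experiments 1, 2 and 3. It read 2.27, 2.59 and 2.74 in MO13. It read 2.38, 2.36 and 2.52 in MO13+C13. All 6 arrays with the ADAM13 morpholino lay under all 3 controls, and the MO13 and MO13+C13 values overlapped. All 9 values were under the array median and over the lower quartile.

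Against a CMO mean of 3.54 (SD 0.32, n = 3), the MO13 mean of tnnt3.S was 2.53 (SD 0.24, n = 3), a difference of -1.01 (SE 0.19, 95% interval -1.44 to -0.58), or 2.01-fold lower. It missed the threshold without the block (limma adjusted p = 0.159) and passed it with experiment as a block (adjusted p = 0.0252). The lower value was seen in 3 of 3 experiments. Without experiment 1, 2 or 3 the blocked adjusted p was 0.13, 0.239 or 0.127, with differences of -0.90, -1.19 and -0.94. Blocked calls over the whole table then fell from 179 to 0, 0 and 7. The lost call is therefore not particular to tnnt3.S. In the authors' deposited table the same probe set stood with an average change of -1.01. That table is made from the same array values and holds 39.5% of all probe sets, so it adds no separate evidence.

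No other troponin was called. The inhibitory subunit tnni2.S differed by 0.25 (limma adjusted p = 0.878) on 1 probe set and by 0.01 on the other. The calcium-binding subunit tnnc2 differed by -0.10 for tnnc2.L and -0.09 for tnnc2.S. The cardiac troponin T gene tnnt2.L differed by 0.16. The slow inhibitory subunits were lower by a larger amount, -0.55 for tnni1.2.L and -0.51 for tnni1.S, and neither passed (adjusted p = 0.906 for both). Of 12 troponin probe sets, 0 passed without the block and 1 with it, beside 0.0968% and 1.16% of the table. That 1 was the only blocked call among the 81 members, or 1.23% of them, which is near the share of the table.

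**Figure D2:**
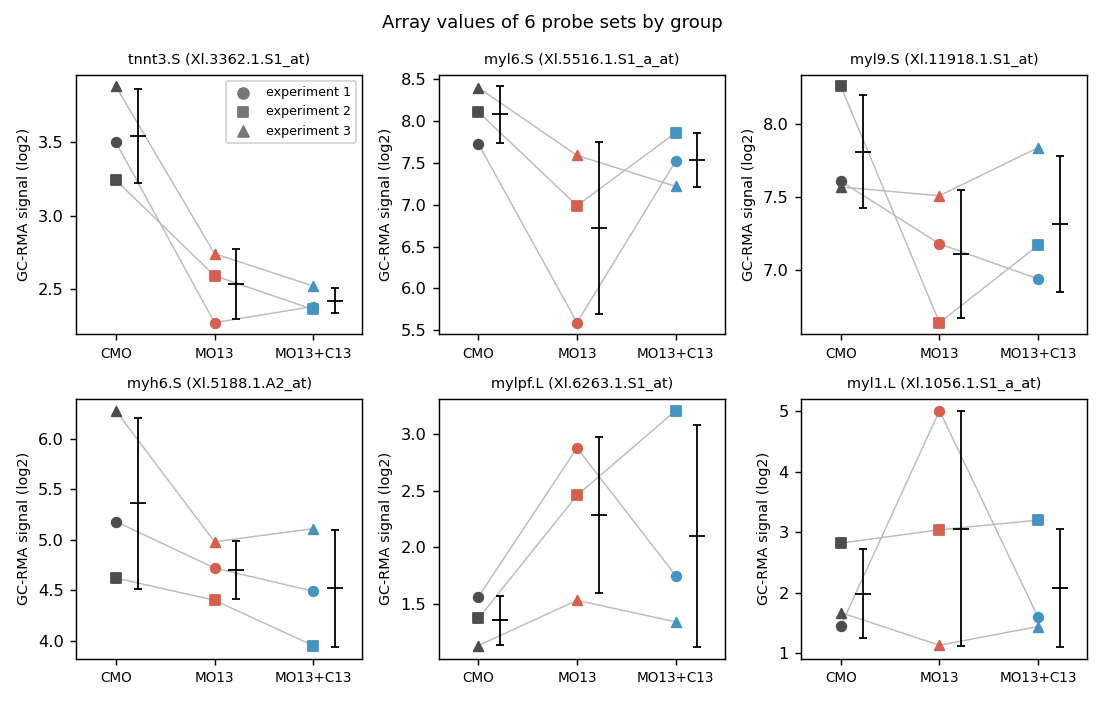
Array values of 6 member probe sets on the log2 scale by group, with symbols for the 3 experiments, grey lines joining arrays of 1 experiment, and black bars for the mean ± SD (n = 3). For tnnt3.S the CMO arrays read 3.24 to 3.88 and all others at most 2.74, and for myl1.L the MO13 array of experiment 1 reads 5.01 against 1.13 for experiment 3.

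The regulators showed no difference that passed. Between MO13 and CMO the 15 regulator probe sets differed by -0.22 to 0.08, and their 95% intervals together reached from -0.63 to 0.50. The difference was -0.04 (95% interval -0.30 to 0.22) for myod1.L and 0.08 (-0.34 to 0.50) for myod1.S. It was -0.03 (-0.29 to 0.23) for myf5.L and -0.01 (-0.27 to 0.25) for myf6.L, a later-acting relative. For the mesodermal genes it was -0.10 (-0.35 to 0.15) in tbx6.L, -0.04 (-0.42 to 0.34) in tbxt.S and -0.12 (-0.47 to 0.24) in msgn1.L. Of the 15 regulator probe sets, 11 lay under the lower quartile on all 9 arrays. Over all probe sets, 2883 lay that low, and 0 of them were called between groups, with or without the block. Their median interval half-width was 0.28, against 0.46 for probe sets over the median on all 9. At such signals the lack of a call and the narrow intervals cannot show that a regulator stayed unchanged.

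Of the light chains, myl6.S had the most negative difference, and it was not called. This essential light chain of non-muscle and smooth muscle myosin read 7.73, 8.11 and 8.40 in CMO, 5.59, 6.99 and 7.59 in MO13, and 7.52, 7.86 and 7.22 in MO13+C13. The CMO arrays were all above the MO13 arrays, and the MO13 values spread over 2 units. The difference was -1.36 (95% interval -2.42 to -0.30, limma adjusted p = 0.564, with the block 0.13). The regulatory light chain gene myl9.S read 7.61, 8.26 and 7.57 in CMO and 7.18, 6.64 and 7.51 in MO13. Its difference of -0.70 was not called (adjusted p = 0.741), and its copy myl9.L differed by -0.33.

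Fast muscle light chains peaked in single arrays of the MO13 and MO13+C13 groups. In every experiment mylpf.L was also higher in MO13 and in MO13+C13 than in CMO, without a call. The regulatory chain mylpf.L read 1.56, 1.37 and 1.13 in CMO, 2.88, 2.46 and 1.53 in MO13, and 1.75, 3.21 and 1.34 in MO13+C13. One probe set of the essential chain myl1.L read 1.45, 2.82 and 1.67 in CMO, 5.01, 3.04 and 1.13 in MO13, and 1.59, 3.20 and 1.44 in MO13+C13. Of the 6 probe sets for myl1 and mylpf, 3 were highest in the MO13 array of experiment 1 and 3 in the MO13+C13 array of experiment 2. Some of these peaks were slight: another myl1.L probe set reached 1.78 over a median of 1.56, and that of myl1.S reached 2.10 over 1.25. The mean differences between MO13 and CMO were 0.94 for mylpf.L and 1.08 for the myl1.L probe set that read 5.01. They were not called (adjusted p = 0.818 for mylpf.L).

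Outside the members, actn2.S and 1 probe set of atp2a1.S were also highest in the MO13 array of experiment 1. The Z-disc protein actn2.S read 1.74, 2.01 and 1.90 in CMO, 3.85, 3.12 and 2.44 in MO13, and 2.45, 2.45 and 2.63 in MO13+C13. Its difference of 1.25 between MO13 and CMO did not pass (limma adjusted p = 0.301, with the block 0.0945). A probe set of the calcium pump atp2a1.S read 3.72 in the MO13 array of experiment 1, against 1.35 to 2.49 in the other 8. The second probe set of atp2a1.S averaged 8.63 with a range of 8.26 to 8.80, so the pair disagreed in level, and which of them reads the gene was not settled. Of the 35 probe sets of that list, 24 were higher and 11 lower in MO13 than in CMO, with a median of 0.08. Over all probe sets, 7485 were higher and 7915 lower. In the list 0 were called in either direction with or without the block, and 2 had an unadjusted p under 0.05. Several of the 35 were of pdlim5 or pygm, so they do not count separate genes. The list mean was highest, at 2.55, in the MO13 array of experiment 1, against at most 2.46 elsewhere. Without actn2.S and the atp2a1.S probe set that read 3.72, that array no longer had the highest mean. The peak of the list therefore depended on these probe sets. tnnt3.S had no peak in that MO13 array, which held its lowest value.

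Members whose arrays did not overlap between MO13 and CMO numbered 8, or 9.88%, beside 9.92% of the table. Higher in MO13 were 2 probe sets of ckm.L and the one shared by tpm4.S and tpm4.L. Lower were mespa.L, myl6.S, myl9.S, tpm4.L and tnnt3.S. The ckm.L probe sets differed by 0.37 (limma adjusted p = 0.502) and 0.29, and the high one by -0.07. For tpm4, the probe set of tpm4.L alone differed by -0.28 and the shared one by 0.22.

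Adding the cytoplasmic part of ADAM13 was followed by no called change in any member. The median difference between MO13+C13 and MO13 was -0.0067, beside -0.0033 over the table, with 38 higher and 42 lower. limma called 0 members where it called 0.00646% of the table, and with the block the share of the table was again 0.00646% and no member. In both fits that share was 1 probe set, that of adam33.L, whose cytoplasmic part was in the added mRNA. It differed by 5.73 (limma adjusted p = 0.00471, with the block 0.0146). No member reached an unadjusted p under 0.05 without the block, beside 1.36% of the table, and 2 did with it, or 2.47%, beside 6.71% of the table. The group arrays did not overlap for 1 member, mespa.L, or 1.23%, beside 4.51% of the table.

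For tnnt3.S the difference between MO13+C13 and MO13 was -0.11 (95% interval -0.54 to 0.32, limma adjusted p = 1, with the block 0.87). It was higher in 1 experiment and lower in 2. The upper bound of 0.32 lies under the size of the difference between CMO and MO13. For myl6.S the difference was 0.81 (adjusted p = 1), and for myl9.S it was 0.21. For actn2.S it was -0.63, and of the 35 probe sets of its list 29 were lower and 6 higher, with a median of -0.07 and none called. Over all probe sets, 7779 were lower and 7584 higher. The MO13 arrays stand in both comparisons, so high values in them raise the difference from CMO and lower this one. Whether the list went back with the cytoplasmic part was therefore not tested by these counts. The ubiquitin ligase mylip.S and the tropomyosin tpm3.L differed by 0.35 each, neither of them called.

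Between MO13+C13 and CMO, tnnt3.S was again the one member called with the block. This comparison shares its control arrays with that of MO13 and CMO. The tnnt3.S mean of 2.42 (SD 0.09, n = 3) differed from CMO by -1.12 (SE 0.19, 95% interval -1.55 to -0.69), 2.17-fold lower, and it was lower in 3 of 3 experiments. It missed the threshold without the block (limma adjusted p = 0.0962) and passed it with the block (adjusted p = 0.0172). Without experiment 1, 2 or 3 the blocked adjusted p was 0.0989, 0.17 or 0.126. Blocked calls over the whole table then fell from 272 to 34, 1 and 28.

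Over all members, 0 were called without the block, where 0.142% of the table was called. With the block 1 was called, or 1.23%, where 1.76% of the table was. At an unadjusted p under 0.05 there were 3 members, or 3.7%, beside 7.15% of the table. The blocked fit gave 7 members, or 8.64%, beside 16.1% of the table. The median difference was -0.0133, beside -0.0033 over the table, with 36 higher and 44 lower. Arrays did not overlap for 8 members, or 9.88%, beside 12.6% of the table. These were myl4.L, higher in MO13+C13, and 7 lower ones: myf6.L, tbx6.L, 2 probe sets of the atrial light chain mylc2a, tpm2.S, tpm4.L and tnnt3.S. The light chain myl4.L, of embryonic and atrial muscle in mammals, read 1.84, 1.86 and 2.08 in CMO, 2.04, 2.50 and 2.61 in MO13, and 2.26, 2.37 and 2.37 in MO13+C13. Its differences from CMO were 0.46 for MO13 and 0.41 for MO13+C13, neither of them called (adjusted p = 0.596 and 0.638). A probe set of the other copy, myl4.S, differed by -0.14 between MO13 and CMO.

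The heavy chain gene myh6.S, cardiac in mammals, varied with the experiment. On the highest of its several probe sets it was lower, without a call, under the ADAM13 morpholino. That probe set read 5.18, 4.62 and 6.28 in CMO, 4.72, 4.40 and 4.98 in MO13, and 4.49, 3.95 and 5.11 in MO13+C13. In each experiment both ADAM13 morpholino arrays were under the control. The difference from CMO was -0.66 for MO13 (limma adjusted p = 0.885, with the block 0.152) and -0.84 for MO13+C13 (adjusted p = 0.799, with the block 0.0864). Experiment 3 was the highest in every group, and the groups overlapped.

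**Figure D3:**
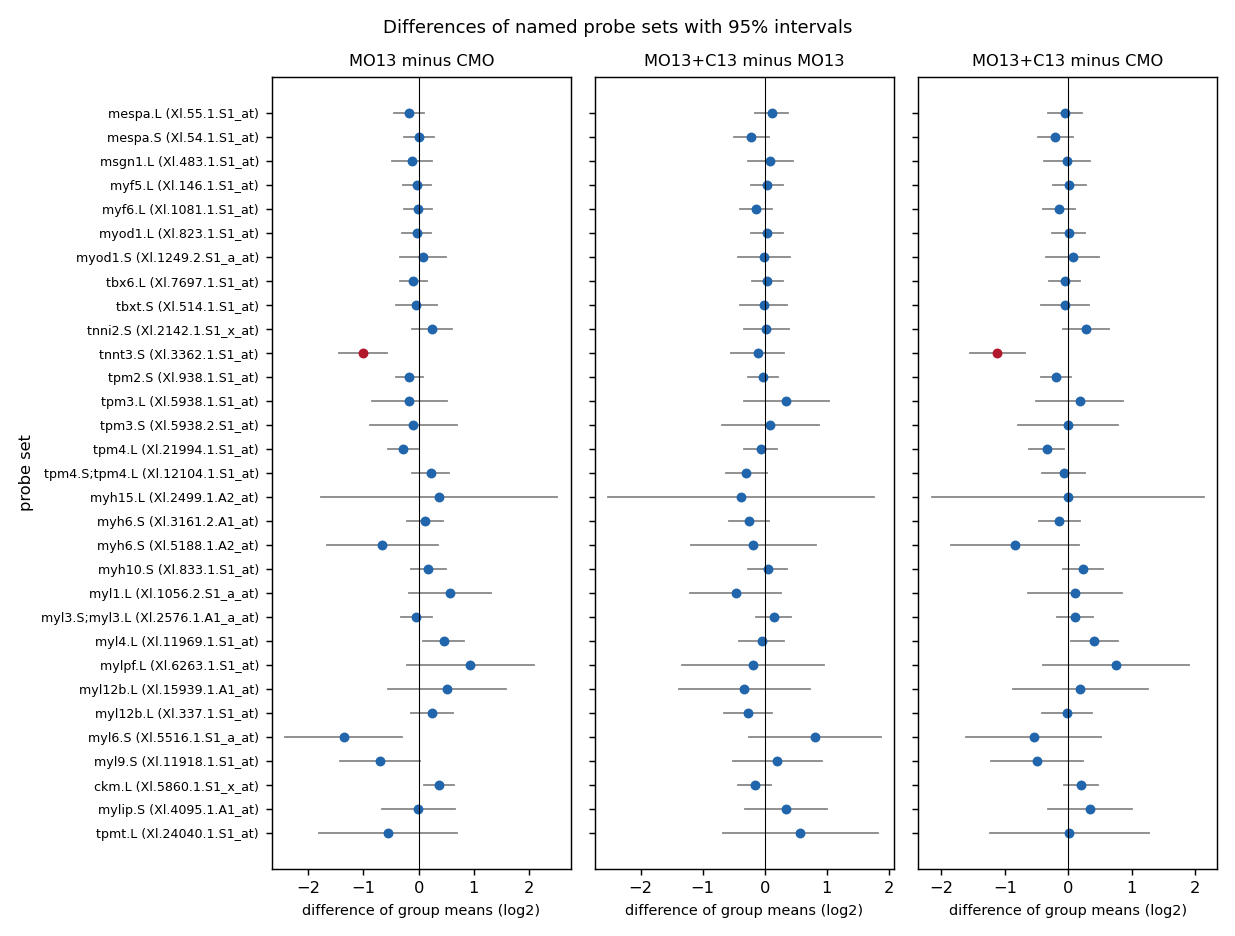
Differences of group means on the log2 scale for 31 named probe sets in the 3 comparisons, with 95% limma intervals from the fit without the block, and red points where the adjusted p was under 0.05 with experiment as a block. Only tnnt3.S is red, at -1.01 for MO13 minus CMO and -1.12 for MO13+C13 minus CMO.

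The levels of other tissues are given beside the lower tnnt3.S, and their part in it was not tested. The mean over the 62 regulator and muscle-type probe sets was 1.83 to 1.96 in the CMO arrays, 1.83 to 2.07 in MO13 and 1.86 to 1.90 in MO13+C13. The mean over the 30 crest probe sets was 7.45 to 7.54 in CMO, 7.24 to 7.45 in MO13 and 7.21 to 7.31 in MO13+C13, the last under all 3 controls. For the 22 blood and vessel probe sets it was 2.21 to 2.31 in CMO, 2.08 to 2.16 in MO13 and 2.08 to 2.17 in MO13+C13, so the 6 arrays with the ADAM13 morpholino lay under all 3 controls. In that list the probe set of aplnr.S read 2.72, 5.32 and 2.15 in CMO, and 4.14, 2.22 and 1.62 in MO13. In MO13+C13 it read 1.55, 2.03 and 1.70. The value of 5.32 stood in the CMO array with the highest list mean, that of experiment 2. Without aplnr.S the mean of that array did not lie over all 6, so the separation depended on this probe set. The early mesoderm mean was 3.00 to 3.06, 2.86 to 3.04 and 2.96 to 3.01 in the same order of groups. The neural plate mean was 6.18 to 6.30, 6.02 to 6.42 and 6.32 to 6.47, and the epidermal mean 5.17 to 5.80, 5.45 to 5.83 and 5.23 to 6.38. For neural plate the MO13+C13 arrays lay over all 3 controls, the lowest at 6.32 against 6.30. Several probe sets of that list were of pax6.L, and without them the MO13+C13 and CMO arrays overlapped. The other muscle, somite, notochord and heart lists overlapped between CMO and each of the other groups. In the crest list the nuclear receptor gene nr2f1.L differed by -0.99 between MO13 and CMO and was called with the block (adjusted p = 0.0257). The 4 probe sets of pax3.L differed by 0.25, 0.11, -0.01 and -0.20 between MO13 and CMO and that of pax3.S by 0.36, none of them called.

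Experiments differed in more members than groups did. With group in the model, 11 members, or 13.6%, differed between the 3 experiments, beside 21.1% of the table. The 11 include the 2 unrelated genes mylip.S and tpmt.L. Of the 62 probe sets for regulators, muscle-type contractile genes and creatine kinase, 6 were called, or 9.68%, and of the 15 for regulators 0. The median share of a probe set's sum of squares that went with experiment was 40.0% for the members and 45.0% for all. Members called fell to 6, 6 and 5 without the CMO array of experiment 1, 2 or 3, beside 2023, 2133 and 1599 probe sets of the table. Without the MO13 array of experiment 3 or 2 they fell to 6 and 7, beside 1793 and 1829. Without the MO13+C13 array of experiment 2 there were 4, beside 1529. With all arrays the table held 3271 such calls, so calls fell over the whole table too.

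The clearest case was a probe set of myh15.L, a sarcomeric heavy chain. It averaged 4.90 in experiment 1, 2.77 in experiment 2 and 2.56 in experiment 3 (limma adjusted p = 0.00279). In experiment 1 it read 4.46 in CMO, 5.63 in MO13 and 4.61 in MO13+C13, and none of the other 6 arrays exceeded 2.91. Another member, the non-muscle light chain myl12b.L, averaged 6.50, 5.30 and 5.68 on 1 probe set. The tropomyosin tpm3.S averaged 8.32, 8.99 and 9.19. The 3 called probe sets of myh6.S were each highest in experiment 3 and lowest in experiment 2, with means of 4.80, 4.32 and 5.46 on the brightest. The slow troponin tnni1.2.L went the other way, with 2.92, 3.13 and 2.16. For tnnt3.S the difference between experiments did not pass (adjusted p = 0.19).

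**Figure D4:**
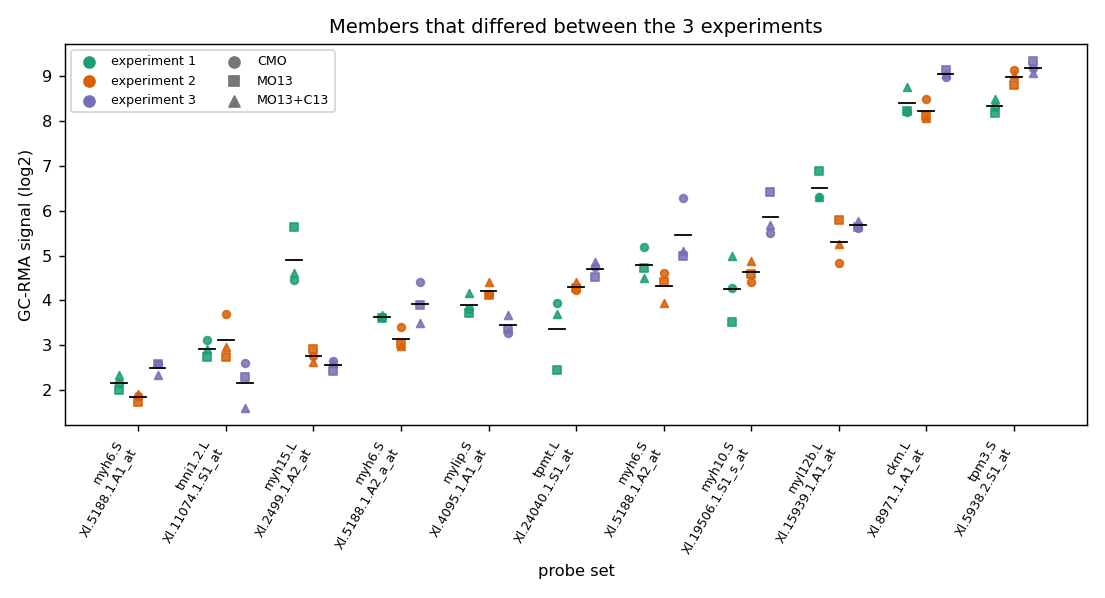
Values on the log2 scale of the 11 member probe sets that differed between experiments (limma, adjusted p under 0.05), with colour for experiment, marker for group and black lines for the mean of the 3 arrays of an experiment. The unrelated genes mylip.S and tpmt.L are among them. The myh15.L probe set averages 4.90 in experiment 1 against 2.77 and 2.56, and those of myh6.S are highest in experiment 3.

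The authors' deposited lists, made at a p of 0.01, held members at or below the rate of the table. Of the 81 member probe sets, 30 stood in the authors' deposited table of genes affected by loss of ADAM13, or 37.0%, beside 39.5% of all probe sets. In the authors' deposited table for addition of the cytoplasmic part, 6 stood, or 7.41%, beside 13.5% of all.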

How the data were processed

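Cranial neural crest RNA was hybridised to 9 one-colour Affymetrix arrays. Values were deposited as log2 intensities, which the authors made, per the submitters' processing notes, in Affymetrix Expression Console by GC-RMA, with no version given in the sources used here. The authors' lists carry the same log2 values per the file headers, with a largest difference of 0. Identical arrays were looked for, and 0 pairs were found. Detection calls were not used. With 3 arrays per group, the spread was estimated over all 9 arrays and moderated by limma over all probe sets.

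Members and lists were chosen with earlier results of these data known. Groups were compared with limma 3.58.1 in R 4.3.3, in a two-sided test on group alone over all 9 arrays. P-values were adjusted (Benjamini-Hochberg) over the 15491 probe sets, and those under 0.05 were called; the step was tested on simulated data. The labels and series text tie replicate numbers to shared experiments. Arrays of 1 experiment deviated together from their group means (correlations of 0.506 to 0.734). Arrays of another experiment and group gave -0.464 to -0.0592. Deviations add up to 0 in each group, so these negative values are not separate evidence. The fit with experiment as a block is therefore given where it changes a call. Intervals and SEs are from the fit without the block, which leaves the spread between experiments in the error. Experiments were compared by a moderated F with group in the model.

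Probe sets were named by rule: tnnt3, myod1, myf5, myf6, tbxt, tbx6, msgn1 and mespa; per comparison the 4 symbols higher and 4 lower with the smallest unadjusted p; 6 by experiment; and up to 3 per list. The myh9, myl9.L, tnnc2, tnnt2, tnni1, acta, tpm2.L, mylc2a, myog, some pax3, atp2a1.S and crest examples were named after their values were seen. All 56 member gene identifiers matched RefSeq (Xenopus_laevis_v10.1), with symbols unchanged. Alternatives were the block, the compared groups alone, dim probe sets left out, median centring, other eBayes settings and arrays or experiments left out. No sequence or coordinate was used here.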

Additional observations from a re-analysis of the deposited data

How the results depend on the processing

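With experiment as a replicate block, members called rose from 0 to 1 (tnnt3.S) for MO13 against CMO and for MO13+C13 against CMO, and stayed at 0 for MO13+C13 against MO13. The block changed no other member's call. Over the whole table it raised the calls from 15 to 179 and from 22 to 272 in the comparisons with CMO, while an intensity trend left 5 and 10, the compared groups alone 0 and 9, and omission of dim probe sets 9 and 16. tnnt3.S kept its direction against CMO in all settings that retained it, with limma adjusted p from 0.0252 to 0.938 for MO13 and 0.0172 to 0.696 for MO13+C13. Leaving out probe sets with a mean under the median drops tnnt3.S and leaves 13 members. Their median differences were then -0.0667 for MO13 against CMO and 0.0933 for MO13+C13 against MO13. Between experiments 4 of them were called, beside 2347 probe sets of the table. Centring arrays on their medians turned the MO13 against CMO median from -0.03 to 0.0333, and leaving out 1 array or experiment gave -0.055 to 0.0217. For MO13+C13 against CMO leaving 1 out gave medians of -0.055 to 0.01. For MO13+C13 against MO13 it gave -0.0417 to 0.02, and centring -0.0633, beside -0.0067. With 1 array left out, 4 to 12 members were called between experiments, beside 1529 to 2891 probe sets of the table. The cause was not tested. Of 31 named probe sets, 13, 17 and 14 changed sign in some setting in the 3 comparisons, none of them while called.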
